A study of Rattus norvegicus with 6 samples.

Results

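The genes that carry folate and other vitamins across cell membranes were examined in the lateral ventricular choroid plexus of the rat at embryonic day 15 (E15) and in the adult. Members were looked up in the authors' table of named genes under 10 symbols: *Folr1*, *Slc46a1*, *Slc19a1*, *Tcn2*, *Lrp2*, *Cubn*, *Slc19a2*, *Slc23a1*, *Slc23a2* and *Slc5a6*. Of these, 9 were found, among 29479 gene identifiers in the table of counts (16643 tested), and *Cubn* was not analysed here. Both lateral ventricular plexuses of 10 Sprague-Dawley rats were pooled for each RNA sample, and 3 pools were sequenced at E15 and 3 at 6 weeks of age (adult), with 1 library per pool. The animals were untreated at both ages, and the comparison asks which transcripts differ between the embryonic and the adult plexus. Whole plexuses were taken, with their stroma, vessels and blood cells beside the epithelium. In such samples, fewer cells of a type and less RNA per cell cannot be told apart.

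The choroid plexus epithelium is a main route by which water-soluble vitamins pass from blood to cerebrospinal fluid. Folate is bound by folate receptor alpha (*Folr1*) and carried through the cell in vesicles, and the proton-coupled folate transporter (*Slc46a1*) and the reduced folate carrier (*Slc19a1*) move folates across membranes. Cobalamin reaches cells bound to transcobalamin (*Tcn2*), and megalin (*Lrp2*) and cubilin (*Cubn*) are large endocytic receptors that take up carrier proteins with their vitamins. Thiamine is carried by *Slc19a2*, ascorbate by the sodium-dependent transporters *Slc23a1* and *Slc23a2*, and biotin, pantothenate and lipoate by *Slc5a6*. The plexus is known for *Slc23a2*, through which ascorbate is concentrated in the cerebrospinal fluid.

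Library totals were 17875089, 18901272 and 18524987 counts for E15 replicates 1, 2 and 3, and 18511712, 19204440 and 18421472 for adult replicates 1, 2 and 3. Together the 9 members took 0.0555%, 0.0665% and 0.0660% of the counts at E15, against 0.233%, 0.243% and 0.231% in the adult. Levels are given as CPM, counts relative to the library total after correction by TMM factors, which are set from the majority of genes. At this scale a single count was worth 0.0400 to 0.0425 CPM at E15 and 0.0674 to 0.0735 CPM in the adult. Because gene lengths of the build used for counting were not used here, levels are compared between ages and not between genes. E15 replicate 1 stood apart from its group, correlating across genes at a Spearman's rho of 0.979 and 0.982 with E15 replicates 2 and 3, compared with 0.996 between these. It also held the lowest E15 level for 8 of the 9 members, all but *Slc19a2*. Values without this pool are given with several of the results.

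In edgeR's quasi-likelihood test, 2 members (*Lrp2* and *Slc23a1*) were enriched at E15 and 7 were enriched in the adult, where a gene was called when its Benjamini-Hochberg adjusted p, over 16643 genes tested, was under 0.05. This adjusted p is the value quoted throughout as edgeR adjusted p. Of all genes tested, 5773 (34.7%) were called at E15 and 4879 (29.3%) in the adult, together 10652 (64.0%). Normalised levels of the ages did not overlap for any of the 9 members, as for 11660 (70.1%) of the genes tested. The authors' table names only genes that they had already called on these same pools, so nothing is read from these counts for the members. The median log2 fold change (positive where expression was higher at E15) was -1.76 over the 9 members and 0.14 over all genes tested. The first is over genes the authors had called, so these medians are not read against each other either.

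Small changes could turn in direction with scaling by total counts only. The 10 genes with the most counts took 24.2% to 27.3% of the counts of an adult library and 4.86% to 5.90% of an E15 library, and scaling by total counts only raised the median over all genes by 0.80, to 0.95. With that scaling 9799 genes (58.9%) were called at E15 and 2292 (13.8%) in the adult. Among the members, 6 were still called in the adult and 2 at E15, with every fold change shifted towards E15, and *Slc46a1* changed sign and was not called. All values not marked otherwise are from TMM scaling.

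**Figure D1:**
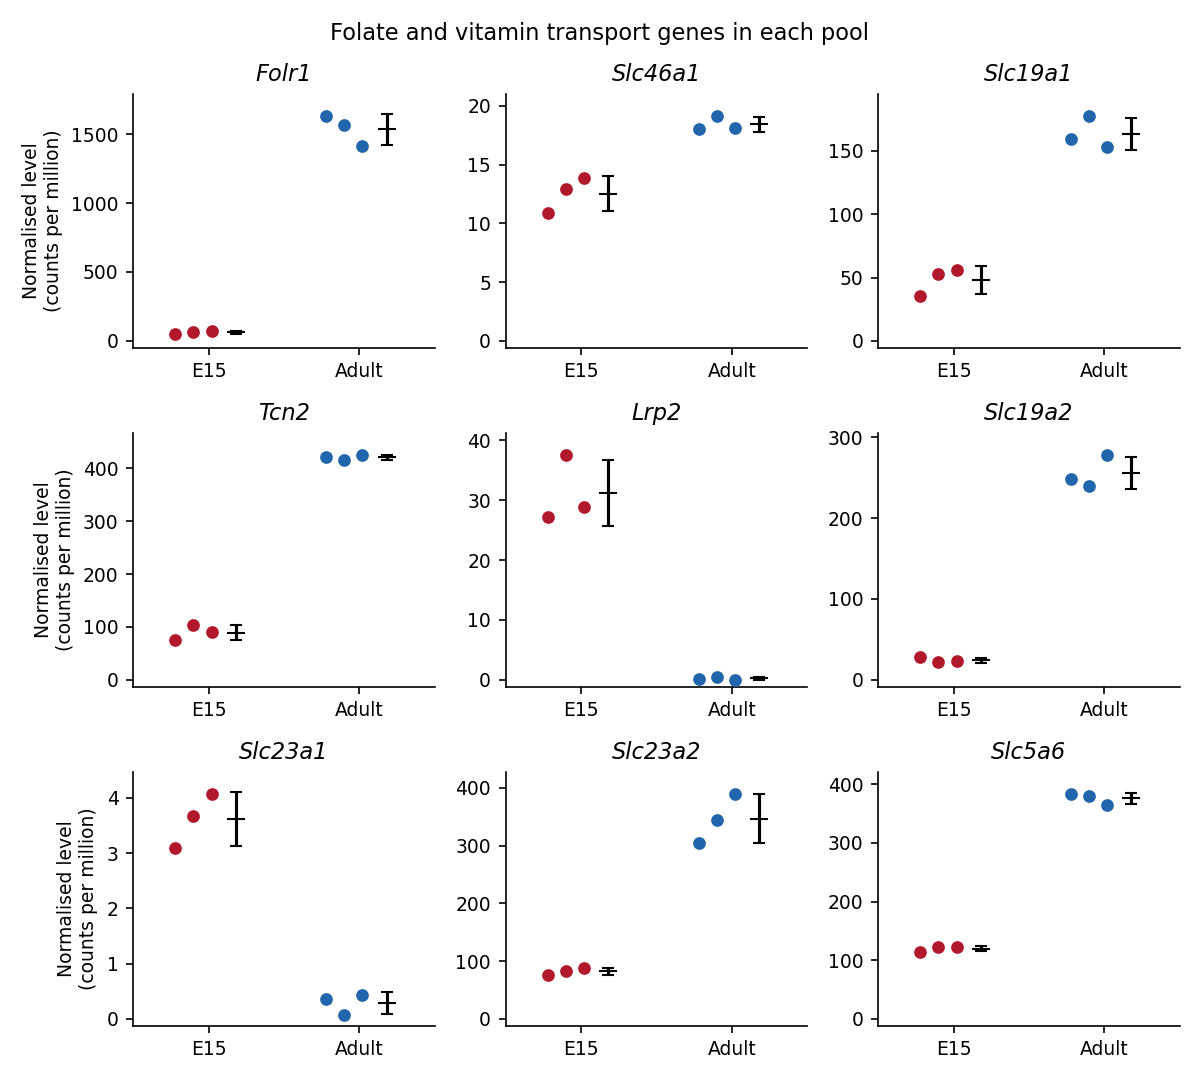
Normalised level (CPM, linear axes from 0) of each of the 9 members in the 3 E15 pools (red) and 3 adult pools (blue), with the mean and SD of each age in black. Pools of the ages did not overlap in any panel, and *Lrp2* and *Slc23a1* were the members with the higher level at E15.

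*Folr1* (ENSRNOG00000019902) had levels of 51.4, 65.2 and 70.6 CPM in the E15 pools, against 1631, 1562 and 1410.4 in the adult pools. Each adult pool was thus far above each E15 pool, and the spread within an age was small beside the gap. The mean was 62.4 ± 9.92 at E15, compared with 1535 ± 113 in the adult (SD over 3 pools each), which is an enrichment of 24.6-fold in the adult (log2 fold change -4.62 with a standard error of 0.15, edgeR adjusted p = 2.12e-08). Without E15 replicate 1 the log2 fold change was -4.50.

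*Slc46a1* (ENSRNOG00000010291) changed least among the members. Its levels were 10.9, 12.9 and 13.8 CPM at E15 against 18.01, 19.1 and 18.1 in the adult. The ages were close but did not overlap, and the adult level was 1.47-fold higher (log2 fold change -0.55 with a standard error of 0.15, edgeR adjusted p = 0.0109). This direction turned with scaling by total counts only, where the log2 fold change was 0.25 and the edgeR adjusted p was 0.181, against 0.00234 to 0.0349 over the other alternatives. Its raw counts were 256, 323 and 340 at E15, compared with 245, 284 and 254 in the adult, so before scaling by TMM the ages overlapped.

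*Slc19a1* (ENSRNOG00000001232) had 35.7, 53.0 and 56.0 CPM at E15 against 160, 178 and 153 in the adult. The lowest E15 value was that of replicate 1, and all adult pools were above all E15 pools. Enrichment in the adult was 3.39-fold (log2 fold change -1.76 with a standard error of 0.17, edgeR adjusted p = 1.42e-05). Without E15 replicate 1 the log2 fold change was -1.59.

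Of 9 further genes listed for folate uptake and cellular folate, 8 were found and tested. In this list and those below, genes had names only where the authors had called them. Their counts of calls are thus not read against the 34.7% (E15) and 29.3% (adult) of all genes tested. Enriched in the adult were 3, *Ggh*, the lysosomal hydrolase that shortens folate polyglutamates (log2 fold change -2.38 ± 0.16, standard error), the exporter *Abcc1* (-1.66 ± 0.11) and *Slc25a32*, the mitochondrial folate carrier (-1.20 ± 0.19). Enriched at E15 were 3, the exporter *Abcg2* (3.54 ± 0.51), *Fpgs*, the enzyme that adds glutamates to folate (2.18 ± 0.62), and the exporter *Abcc5* (0.59 ± 0.12). The call for *Slc25a32* was lost with scaling by total counts only (log2 fold change -0.39). Neither *Folh1* nor the folate receptor beta gene *Folr2* was called. *Folr2*, which is also a macrophage marker, had 31, 44 and 34 raw counts at E15, compared with 4, 7 and 18 in the adult (log2 fold change 1.12 with a standard error of 0.54, edgeR adjusted p = 0.0989). Without adult replicate 3, which held the highest adult count, its log2 fold change was 1.90 and the edgeR adjusted p was 0.012, within a range of 0.00471 to 0.263 over the alternatives. It was also called at E15 with total counts only (log2 fold change 1.91). The list's median log2 fold change was -0.30, or 0.50 with total counts only, which reversed its sign.

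Enzymes of one-carbon metabolism moved in both directions. Of 20 listed, 11 were tested, all of them named because the authors had called them. Enriched at E15 were 7 and in the adult 3 (34.7% and 29.3% over all genes tested), with a median log2 fold change of 1.39. With total counts only 8 and 1 were called, and the median was 2.20. *Shmt1*, the cytosolic serine hydroxymethyltransferase, had 205, 208 and 284 raw counts at E15 against 3, 2 and 6 in the adult. This was the widest gap in the list, 35.9-fold in favour of E15 (log2 fold change 5.16 with a standard error of 0.39, edgeR adjusted p = 2.87e-06). Mitochondrial *Mthfd2* (2.57 ± 0.46) and *Gldc*, the glycine decarboxylase of the glycine cleavage system (1.63 ± 0.22), were also enriched at E15. In the adult, enrichment was found for *Bhmt*, which takes its methyl group from betaine and not from folate (-2.10 ± 0.23), *Mthfs* (-1.11 ± 0.14) and the cytosolic synthase *Mthfd1* (-0.63 ± 0.11). With total counts only, *Mthfd1* turned to 0.18 and *Mthfs* fell short of the threshold at -0.30. *Ftcd* was tested and not called (1.39 ± 0.58), though it was with total counts only (2.20).

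Promoter sequence was available in the reference for 7 of the 9 members analysed, and 4 are shown, since they belong to members enriched in the adult (*Slc19a2* and *Slc5a6*), to the member that changed least (*Slc46a1*) and to the member most enriched at E15 (*Lrp2*). Each is the 200 bases directly before the annotated start of the gene, 5′ to 3′ on the strand of the gene, from RefSeq on rat build GRCr8. *Slc19a2* lies on the plus strand (chr13:79134918-79135117), *Slc5a6* on the plus strand (chr6:31040200-31040399), *Slc46a1* on the plus strand (chr10:63859351-63859550) and *Lrp2* on the minus strand (chr3:74754536-74754735). Capitals mark matches, on either strand, to any of 6 motifs: the GC box GGGCGG, the E-box CACGTG, the cyclic AMP element TGACGTCA, the CCAAT box CCAAT, the Otx-type homeodomain motif TAATCC and the TATA box TATAAA.
Slc19a2: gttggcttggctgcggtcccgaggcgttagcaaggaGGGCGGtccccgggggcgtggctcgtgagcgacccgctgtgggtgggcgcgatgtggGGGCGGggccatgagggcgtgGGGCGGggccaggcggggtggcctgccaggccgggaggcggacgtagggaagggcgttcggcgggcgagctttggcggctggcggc
Slc5a6: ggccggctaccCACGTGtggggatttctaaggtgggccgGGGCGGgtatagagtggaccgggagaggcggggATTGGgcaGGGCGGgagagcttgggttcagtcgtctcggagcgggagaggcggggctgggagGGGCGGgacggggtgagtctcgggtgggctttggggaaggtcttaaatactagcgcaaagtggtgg
Slc46a1: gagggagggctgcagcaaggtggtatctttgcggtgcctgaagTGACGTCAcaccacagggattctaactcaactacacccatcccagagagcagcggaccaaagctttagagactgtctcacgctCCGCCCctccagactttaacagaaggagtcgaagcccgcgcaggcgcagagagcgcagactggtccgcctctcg
Lrp2: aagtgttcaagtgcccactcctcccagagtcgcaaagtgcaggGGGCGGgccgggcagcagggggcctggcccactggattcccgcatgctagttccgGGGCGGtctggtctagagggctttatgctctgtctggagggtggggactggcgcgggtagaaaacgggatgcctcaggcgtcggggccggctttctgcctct
All 4 held GGGCGG, with 3 matches for *Slc19a2*, 3 for *Slc5a6*, 1 for *Slc46a1* and 2 for *Lrp2*, and so did the windows of all 7 members analysed, while the window of *Cubn* held none. The share over all 33469 promoters of the same length was 28.6%. Their share of G and C was 77% for *Slc19a2*, 66.5% for *Slc5a6*, 59% for *Slc46a1* and 65.5% for *Lrp2*, beside a median of 52% over all promoters. CACGTG and CCAAT were found for *Slc5a6* only (4.68% and 29.2% of all promoters), and TGACGTCA for *Slc46a1* only (1.46%). TAATCC (4.92%) and TATAAA (10.4%) were in none of these windows. Matches of different motifs did not overlap in the sequences shown. GGGCGG was thus found before genes of both directions, and a match describes the letters only.

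*Tcn2* (ENSRNOG00000004280), the carrier of cobalamin in plasma and other fluids, had 74.9, 103 and 90.4 CPM at E15, compared with 421, 415 and 425 in the adult. The adult pools lay within a narrow band and above all E15 pools. The mean was 89.6 ± 14.3 at E15 against 420.2 ± 4.82 in the adult (SD, n = 3), or 4.69-fold higher in the adult (log2 fold change -2.23 with a standard error of 0.13, edgeR adjusted p = 5.08e-07).

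*Lrp2* (ENSRNOG00000030487) moved the opposite way and was the member with the widest gap. Its raw counts were 639, 939 and 710 in the E15 pools, compared with 3, 8 and 0 in the adult pools. In CPM these were 27.1, 37.5 and 28.9 at E15, compared with 0.220, 0.539 and 0 in the adult, where a count of 0 allows up to 0.214 (3 counts, counting error only). Megalin transcript was thus well above the limit of detection in each E15 pool and near it in each adult pool. Enrichment at E15 was 118-fold (log2 fold change 6.88 with a standard error of 0.45, edgeR adjusted p = 1.09e-06). The size of this fold hung on few adult counts. Without adult replicate 2, which held 8 of the 11, the ratio of normalised counts was 288 (95% interval 98.5 to 1399, counting error only), and without adult replicate 3 the fitted enrichment was 78.1-fold. With total counts only it was 204-fold.

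*Lrpap1*, the chaperone of megalin and related receptors, had 162 ± 16.9 CPM at E15 against 453 ± 38.3 in the adult (SD, n = 3), or 2.79-fold higher in the adult (log2 fold change -1.48 with a standard error of 0.12, edgeR adjusted p = 3.50e-06). *Amn*, the membrane partner of cubilin, had 0, 2 and 1 raw counts at E15, compared with 10, 13 and 6 in the adult. The ratio in favour of the adult was 16.6 (95% interval 5.16 to 85.4, edgeR adjusted p = 0.00353), or 32.8 (95% interval 5.45 to 1342) without E15 replicate 2. *Cblif*, the gastric intrinsic factor, had 0 counts at E15 and 9 in the adult and was not tested. Against a floor of 3 counts over the E15 pools it was 5.17-fold higher in the adult, with the adult counts taken as observed. Adult replicate 3 held 6 of the 9. The 3 counts left without it equal the floor, so no fold is given for that case.

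In the list of megalin and cubilin endocytosis 7 of 13 genes were tested. Over all genes tested 34.7% were called at E15 and 29.3% in the adult. *Clcn5*, an endosomal chloride-proton exchanger known for its part in megalin-dependent uptake, was enriched at E15 with *Lrp2* (log2 fold change 2.45 ± 0.12, standard error). *Lrp5*, a Wnt co-receptor of the same receptor family, was also enriched at E15 (0.98 ± 0.18). Enriched in the adult were 4, among them *Lrpap1* and the receptors *Vldlr* (-1.16 ± 0.11) and *Lrp6* (-0.87 ± 0.11), and 3 of the 4 were called with total counts only, *Lrp6* not. *Lrp1* was not called (-0.50 ± 0.21, edgeR adjusted p = 0.0603) and changed sign with total counts only. Receptors related to megalin were thus split between the ages. The median log2 fold change of the list was -0.87, or -0.07 with total counts only.

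Of 13 cobalamin genes listed, 9 were tested, 8 were enriched in the adult and 1 at E15 (29.3% and 34.7% over all genes tested), all of them named because the authors had called them. Of these, 5 and 1 remained called with total counts only, and 2 of the 9 changed sign. The median log2 fold change was -1.34, or -0.53 with total counts only. *Lmbrd1*, part of the lysosomal exit of cobalamin, had 82.5 ± 20.7 CPM at E15 against 909 ± 70.6 in the adult (SD, n = 3), an 11.0-fold enrichment (log2 fold change -3.46 with a standard error of 0.18, edgeR adjusted p = 2.64e-07). Its known partner at that membrane, *Abcd4*, was the gene enriched at E15 (1.41 ± 0.21). *Cd320*, the receptor for transcobalamin with its vitamin, rose in the adult with *Tcn2*, from 37.3 ± 4.59 to 147 ± 5.14 CPM (3.94-fold, edgeR adjusted p = 7.27e-07). *Mcee*, an enzyme of the methylmalonate pathway that ends in a cobalamin-dependent step, was enriched 3.91-fold in the adult.

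Markers of other cell types moved with *Lrp2* and the other genes higher at E15. Like the vitamin genes, markers had names only where the authors had called them, so counts of calls among those found are not read against the 34.7% (E15) and 29.3% (adult) of all genes. Endothelial markers were enriched at E15 in all 7 found of 8 listed, with summed levels of 395, 533 and 440.3 CPM at E15, compared with 39.1, 62.3 and 47.4 in the adult. Among them *Cdh5* had the highest mean at E15 (119 CPM) and *Tek* in the adult (13.1). Mesenchymal markers were enriched at E15 in 6 of 8 (all listed were found), with *Pdgfra* and *Dcn* enriched in the adult. They summed to 2249, 2962 and 2563 at E15 against 854, 888 and 863 in the adult. Of these, *Col3a1* had the highest mean at E15 (885 CPM) and *Pdgfra* in the adult (537). Neural progenitor markers were enriched at E15 in all 4 found of 6 listed and summed to 89.9, 34.6 and 65.0 at E15, compared with 23.4, 20.3 and 18.1 in the adult (most abundant *Pax6*). These lists were all higher at E15, as was *Lrp2*.

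Of the remaining lists most were also higher at E15. Markers of developing neurons were enriched at E15 in all 7 found of 8 listed, summing to 229, 76.3 and 173 at E15 against 7.35, 23.5 and 6.56 in the adult, with *Tubb3* the most abundant and *Neurod6* at 0 in the adult. Proliferation genes (all 4 found of 6 listed) summed to 438, 359 and 394 at E15, compared with 6.91, 8.22 and 8.41 in the adult. The most abundant was *Cdk1* at E15 and *Bub1* in the adult. Erythroid genes (all 6 found of 8 listed, most abundant *Hbb*) summed to 1228.5, 2348 and 2458 at E15 against 321, 440.3 and 339 in the adult. Of 5 macrophage genes found among 7 listed, 2 were higher at E15 and 1 was higher in the adult (most abundant *Csf1r*), with sums of 94.0, 105 and 90.4 at E15, compared with 24.4, 41.2 and 40.1 in the adult. Of the oligodendrocyte genes, *Mag* and *Mobp* were enriched in the adult and *Mog* at E15, and their list is not summed here. The 2 astrocyte genes found of 4 listed split, with *Slc1a3* enriched at E15 and *Gfap* in the adult, and summed to 213, 177 and 162 at E15, compared with 51.7, 132 and 42.9 in the adult. *Slc1a3* was the more abundant in each pool but adult replicate 1.

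Among the E15 pools, the level of *Lrp2* was highest in replicate 2. There the sums for developing neurons, neural progenitors and proliferation were lowest, and those for endothelium, mesenchyme and macrophages were highest. Sums for erythroid genes and epithelium were highest in E15 replicate 3, and that for astrocytes in E15 replicate 1. Adult counts of *Lrp2* were highest in replicate 2 and lowest in replicate 3, the same order as the sums for developing neurons and astrocytes. The sums for endothelium, mesenchyme, macrophages and erythroid genes were also highest in adult replicate 2. Those for neural progenitors and epithelium were highest in adult replicate 1, and that for proliferation in adult replicate 3. With 3 pools an age these orders are descriptions, and the part of other cell types in the result for *Lrp2* was not tested.

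**Figure D2:**
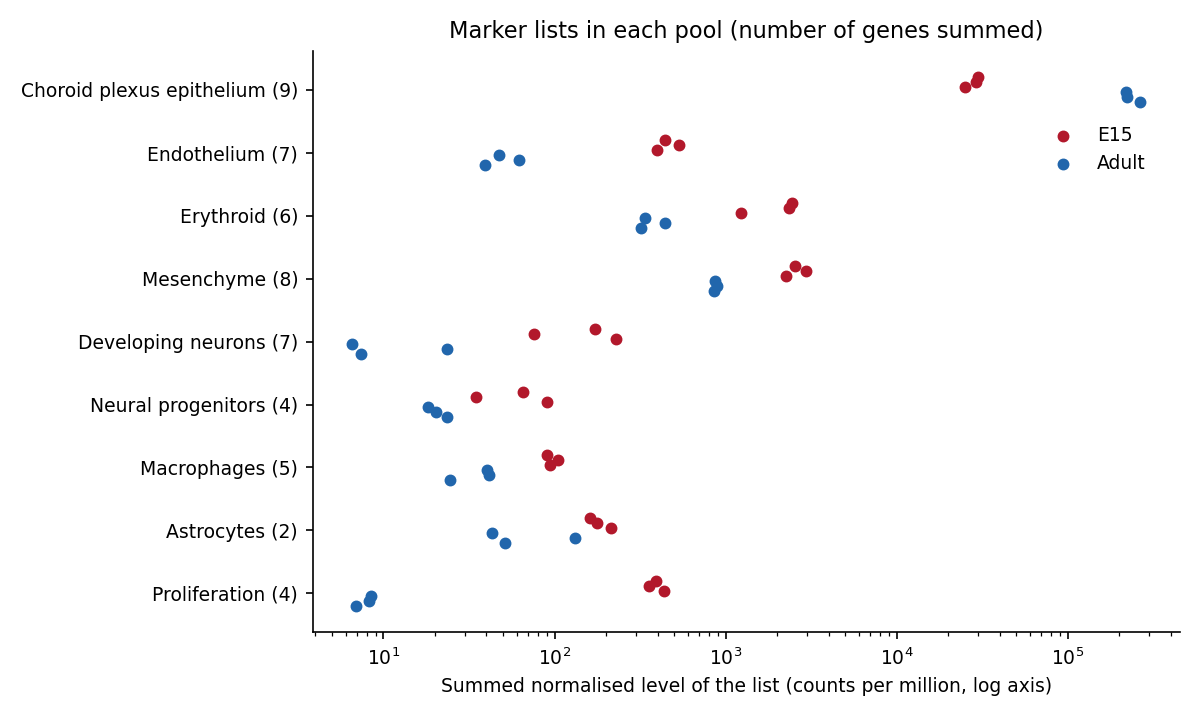
Summed normalised level (CPM, log axis) of 9 marker lists in the 3 E15 pools (red) and the 3 adult pools (blue), with the number of genes summed in parentheses. The epithelial list was higher in every adult pool than in every E15 pool, and the other 8 lists drawn were higher in every E15 pool. Oligodendrocyte genes, of which *Mag* and *Mobp* were enriched in the adult, are not drawn.

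Markers of the epithelium moved with the members enriched in the adult. Of 12 listed, 9 were found, all with counts in every pool and all enriched in the adult, with a median log2 fold change of -2.42. They summed to 25009.7, 29034 and 29806 CPM at E15 against 265870, 223398 and 218136 in the adult. Most of this was *Ttr*, and without it the sums were 4780, 4806 and 4854 at E15, compared with 27888, 28153 and 29219 in the adult. The labelled tissue thus had its defining transcripts at both ages. *Folr1* (-4.62) and *Slc19a2* (-3.39) fell beyond the median of this list, while *Tcn2* (-2.23), *Slc23a2* (-2.07), *Slc19a1* (-1.76), *Slc5a6* (-1.65) and *Slc46a1* (-0.55) lay short of it. Single epithelial markers ranged from -5.49 (*Kl*) to -1.47 (*Aqp1*). The part of the epithelial share in these changes was not tested.

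*Slc19a2* (ENSRNOG00000002839), the thiamine transporter whose promoter is shown above, had 27.9, 21.6 and 23.7 CPM at E15 against 248, 240.2 and 278 in the adult. No E15 pool came near an adult pool. Enrichment in the adult was 10.5-fold (log2 fold change -3.39 with a standard error of 0.13, edgeR adjusted p = 5.76e-08), and 6.0-fold with total counts only. Unlike the other members it was not lowest in E15 replicate 1, and without that pool the log2 fold change was -3.50.

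*Slc19a1* and *Slc19a2* belong to the same family and carry different vitamins, and their ratio within a library does not depend on scaling. The log2 ratio of *Slc19a2* to *Slc19a1* was -0.36, -1.30 and -1.24 in the E15 pools, against 0.63, 0.44 and 0.86 in the adult pools. In raw counts, which are not per length, *Slc19a1* was thus the larger in each E15 pool and *Slc19a2* in each adult pool. Only the change of this ratio between ages is read. The mean difference (E15 minus adult) was -1.61, with an exact two-sided permutation p of 0.10, the smallest that 3 pools against 3 allow. E15 replicate 1 stood apart, and without it the difference was -1.91.

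Other genes for thiamine and riboflavin were few, with 4 of 11 tested. Of these, 3 were enriched in the adult (29.3% over all genes tested), and none of the 3 was called with total counts only. *Rfk*, the riboflavin kinase (log2 fold change -1.24 ± 0.24, standard error), *Slc25a32* (given above, also a carrier of flavin) and *Slc44a4*, which carries thiamine pyrophosphate (-0.66 ± 0.14), were higher in the adult with TMM. With total counts only these were -0.44 for *Rfk* and 0.14 for *Slc44a4*, a change of sign. The other thiamine transporter of the family, *Slc19a3*, had 5, 8 and 8 raw counts at E15, compared with 0, 2 and 0 in the adult. The ratio was 6.10 (95% interval 1.49 to 53.7) in favour of E15 and was not called (edgeR adjusted p = 0.0703). Both adult counts came from replicate 2. Without that pool the gene was 2.65-fold higher at E15 against a floor of 3 counts over the remaining adult pools. It was then called (edgeR adjusted p = 0.0252, range over the alternatives 0.00729 to 0.167), as it was with total counts only (0.0199).

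The ascorbate transporters moved in opposite directions. *Slc23a2* (ENSRNOG00000021262) had 76.1, 83.0 and 88.2 CPM at E15 against 305, 345 and 389 in the adult, with no overlap. It was enriched 4.20-fold in the adult (log2 fold change -2.07 with a standard error of 0.12, edgeR adjusted p = 5.67e-07). *Slc23a1* (ENSRNOG00000019938), known mainly from absorptive epithelia such as kidney and intestine, had 73, 92 and 100 raw counts at E15, compared with 5, 1 and 6 in the adult. Its level was low at both ages, at 3.10, 3.68 and 4.07 CPM at E15 against 0.367, 0.0674 and 0.428 in the adult. Each E15 pool nonetheless stood well above each adult pool, 12.5-fold higher by the fit (log2 fold change 3.64 with a standard error of 0.50, edgeR adjusted p = 0.000154). Leaving out a pool put the log2 fold change of *Slc23a1* between 3.13 and 4.02. In the current reference *Slc23a1* overlaps *Paip2*, and the counting is not stated to use strand, so reads of the shared stretch are uncertain. *Slc23a2* overlaps a pseudogene there.

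Within a library the log2 ratio of *Slc23a2* to *Slc23a1* was 4.61, 4.49 and 4.43 at E15, compared with 9.56, 11.74 and 9.71 in the adult (pseudocount 0.5). The E15 pools were close to each other, and the adult pools were all higher, the highest being replicate 2 with a single *Slc23a1* count. On the linear scale, with the same pseudocount, this ratio was 24.4, 22.4 and 21.6 at E15 against 754, 3410.3 and 840.2 in the adult. The pseudocount weighs most in adult replicate 2, where the raw counts were 5115 for *Slc23a2* and 1 for *Slc23a1*. The difference in mean log2 ratio was -5.83, with an exact two-sided permutation p of 0.10, again the smallest possible. Leaving out adult replicate 2 gave -5.13. Counts are not per length, so only the change of this ratio between ages is read.

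**Figure D3:**
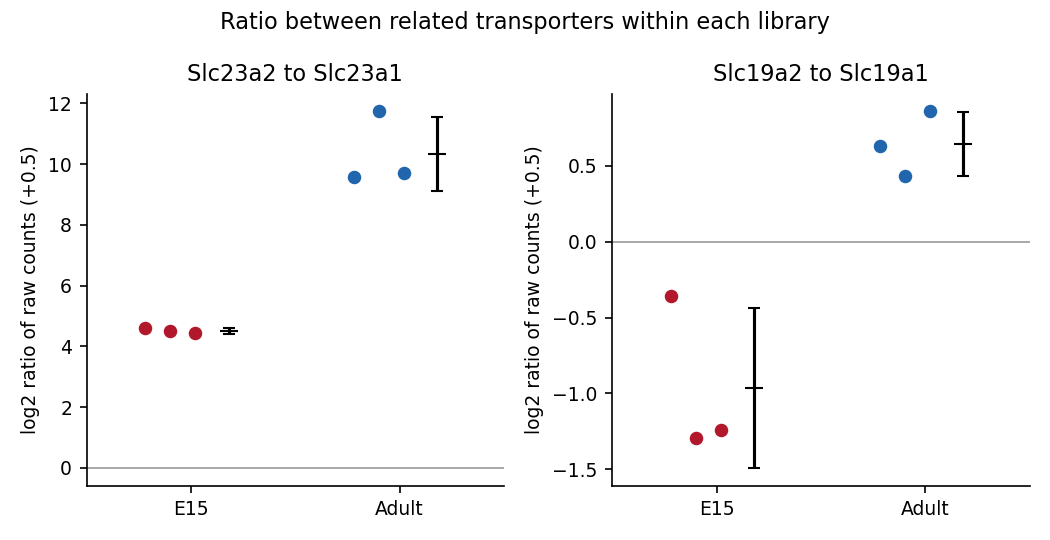
Log2 ratio of raw counts (0.5 added to each) of *Slc23a2* to *Slc23a1* and of *Slc19a2* to *Slc19a1* within each E15 library (red) and adult library (blue), with the mean and SD of each age in black. Both ratios were higher in every adult library, with a mean difference (E15 minus adult) of -5.83 and -1.61.

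Of 12 further genes for vitamin C, 7 were tested, 3 enriched at E15 and 4 in the adult (34.7% and 29.3% over all genes tested). With total counts only 3 and 1 were called. The facilitated glucose transporters that also take up oxidised ascorbate were higher at E15. *Slc2a1* had 285 ± 35.8 CPM at E15, compared with 165 ± 13.5 in the adult (SD, n = 3, log2 fold change 0.79, edgeR adjusted p = 0.000319). *Slc2a3* had 150, 152 and 148 raw counts at E15 against 2, 17 and 4 in the adult, an 11.4-fold enrichment at E15, or 27.0-fold without adult replicate 2. *Slc23a3*, a family member of less certain substrate, had 5, 4 and 2 counts at E15, compared with 0 in the adult. Against a floor of 3 counts over the adult pools it was 2.13-fold higher at E15, with the E15 counts taken as observed. Its call (edgeR adjusted p = 0.0447) was lost without any 1 of the adult pools (0.0794 to 0.0824), without a filter (0.0581) and with the replicate number as a block (0.13). The call was also lost with DESeq2 (adjusted p = 0.163), and the adjusted p ranged from 0.00825 to 0.163 over the alternatives in which the gene was tested. With 11 counts in all it passed the filter narrowly, and it was not tested with filterByExpr or without any 1 of the E15 pools. In the adult, *Rgn* (-2.00 ± 0.33), the ascorbate-dependent reductases *Cybrd1* (-1.06 ± 0.15) and *Cyb561d2* (-0.96 ± 0.18) and *Gsto2* (-0.92 ± 0.32) were enriched, of which only *Rgn* was called with total counts only.

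*Slc5a6* (ENSRNOG00000006556), the sodium-dependent multivitamin transporter, varied little within an age. It had 114, 122 and 122 CPM at E15 against 383, 379 and 364 in the adult. The mean rose from 119 ± 4.45 to 376 ± 10.0 (SD, n = 3), a 3.15-fold enrichment in the adult (log2 fold change -1.65 with a standard error of 0.09, edgeR adjusted p = 4.28e-07). With total counts only it was 1.80-fold.

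Of 25 genes listed for biotin, pantothenate, pyridoxine and niacin, 13 were tested, 10 enriched in the adult and 3 at E15 (29.3% and 34.7% over all genes tested). With total counts only 2 were called in the adult and 3 at E15, and the median log2 fold change moved from -0.91 to -0.10. *Naprt*, which makes nicotinate mononucleotide (log2 fold change -1.88 ± 0.18, standard error), and *Nmnat3*, a later enzyme of NAD synthesis (-1.39 ± 0.19), were the genes called in the adult with either scaling. *Ppcdc*, of coenzyme A synthesis (-1.07 ± 0.24), was not called with total counts only. Enriched at E15 were the phosphatases of pyridoxal phosphate *Pdxp* (2.21 ± 0.33) and *Alpl* (1.33 ± 0.19), and *Slc5a8*. This relative of *Slc5a6* carries nicotinate and short monocarboxylates, and it had 17, 15 and 13 raw counts at E15, compared with 1, 1 and 3 in the adult (5.01-fold, edgeR adjusted p = 0.0153). Without adult replicate 3 its ratio was 8.75 (95% interval 2.29 to 74.5). With the replicate number as a block *Slc5a8* was not called (edgeR adjusted p = 0.0595).

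For the fat-soluble vitamins D, E and K, 6 of 14 genes were tested, 5 enriched in the adult and 1 at E15 (29.3% and 34.7% over all genes tested). *Cyp27a1*, a mitochondrial sterol hydroxylase that also acts on vitamin D, was enriched 7.66-fold in the adult (log2 fold change -2.94 with a standard error of 0.36, edgeR adjusted p = 7.47e-05). The enzymes of the vitamin K cycle rose together in the adult, *Vkorc1* by 3.26-fold (edgeR adjusted p = 2.62e-06) and *Ggcx*, the carboxylase it serves, by 2.58-fold (edgeR adjusted p = 2.50e-06), both also called with total counts only. *Sec14l2* (log2 fold change -0.68 ± 0.13, standard error) and *Cyp2r1* (-0.92 ± 0.33) made up the 5 and were not called with total counts only, where *Sec14l2* changed sign.

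**Figure D4:**
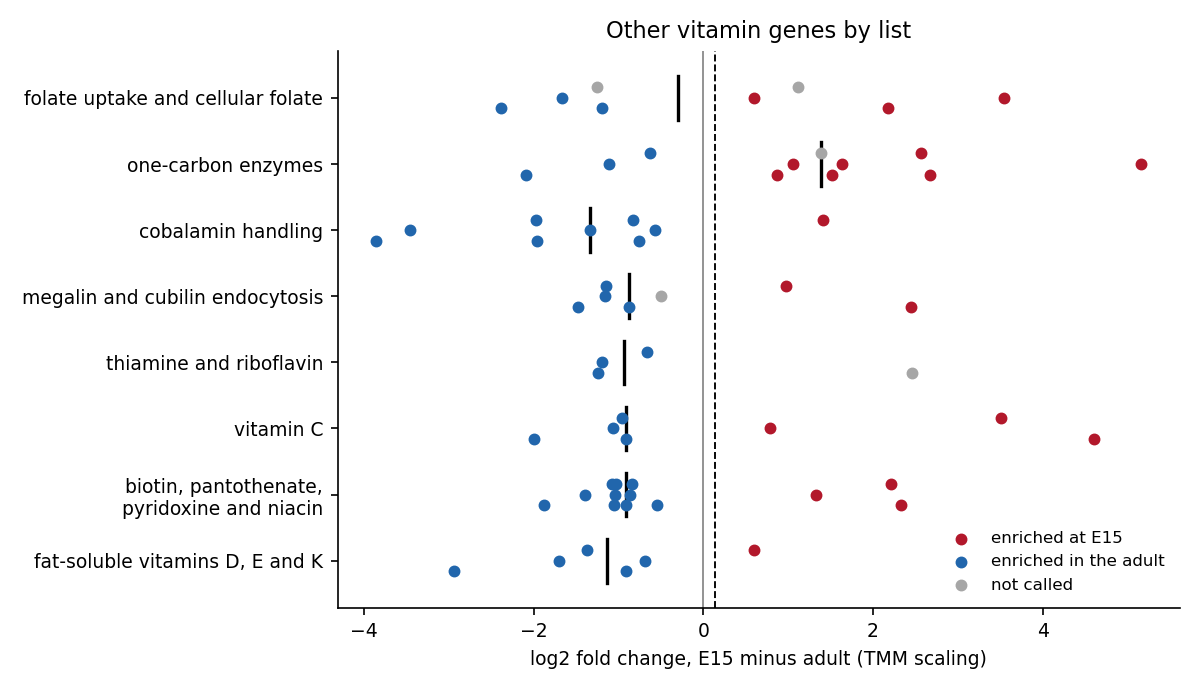
Log2 fold change (E15 minus adult, TMM scaling) of each tested gene of the 8 vitamin lists, coloured by its call, with the median of each list as a black bar and the median of all genes tested (0.14) as a dashed line. Genes of the one-carbon list lay mostly to the right, with a median of 1.39, and cobalamin genes mostly to the left, with a median of -1.34.

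Counted once each, the 8 lists held 116 genes other than the members, of which 65 were found and 64 were tested. Enriched at E15 were 20 and in the adult 39, and 5 were not called, while over all genes tested 34.7% were called at E15 and 29.3% in the adult. With total counts only these were 23 and 17, and 7 genes changed sign, while over all genes tested 58.9% and 13.8% were called. With upper quartile factors the lists had 21 calls at E15 and 36 in the adult. The median log2 fold change was -0.85 with TMM and -0.05 with total counts only, beside 0.14 and 0.95 over all genes tested. As for the members, all of these genes had been called by the authors on the same pools.

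**Figure D5:**
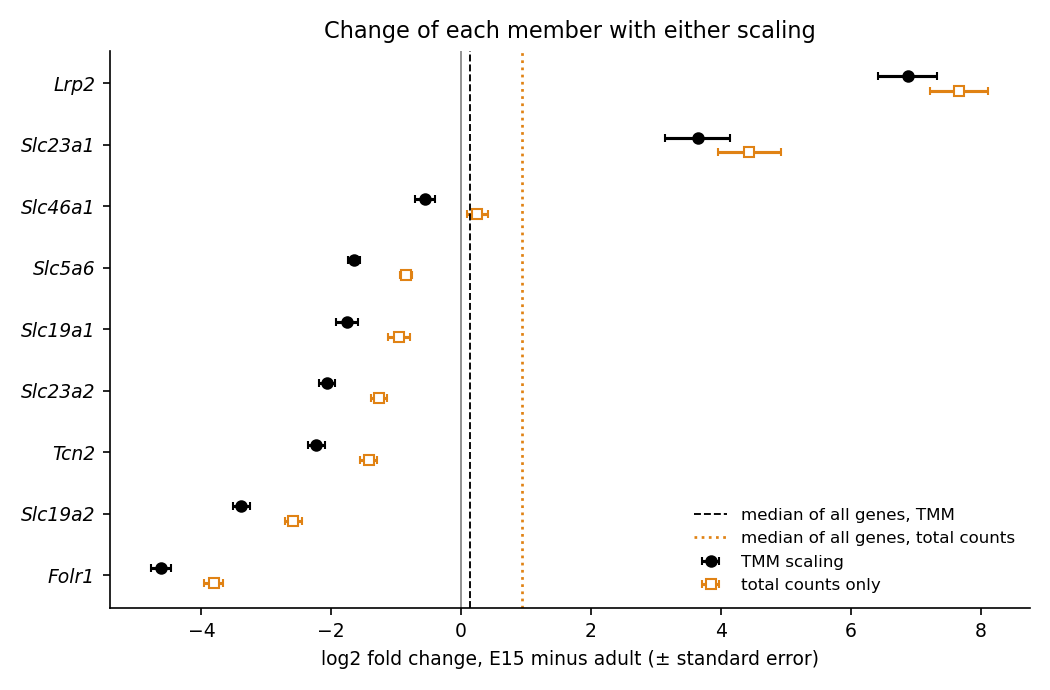
Log2 fold change (E15 minus adult) of each member with its standard error, with TMM scaling (black circles) and with scaling by total counts only (open squares), and the median of all genes tested at each scaling (dashed and dotted lines, 0.14 and 0.95). *Folr1* and *Slc19a2* lay furthest to the adult side, *Lrp2* and *Slc23a1* to the E15 side, and *Slc46a1* changed sign between scalings, from -0.55 to 0.25.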

How the data were processed

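Lateral ventricular choroid plexus RNA of rats was sequenced from 3 pools of 10 animals at E15 and 3 at 6 weeks of age, as 100 bp reads. The authors trimmed the reads, placed them on release 61 of the Ensembl rat genome with Bowtie 0.12.7, kept those with a unique place and counted these on nuclear genes (HTSeq 0.4.7p4, union option). The deposited values are these raw counts, without normalization, with library totals between 17875089 and 19204440. A second table by the authors, made with edgeR 2.4.0, holds log2 fold changes and p-values, which were not used, and names 10093 of the 10653 genes they called. It served only for gene names, so genes they did not call have no name here.

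From the counts, the ages were compared with edgeR 4.0.16 in R 4.3.3 (TMM factors, glmQLFit and glmQLFTest, age as the only term) over the 16643 genes with more than 10 counts in all. Adjustment was by Benjamini-Hochberg, with a threshold of 0.05. The code was tested on simulated data. P-values measure the spread between pools. Alternatives were RLE, upper quartile and total count scaling, no filter, filterByExpr, DESeq2 1.42.0, limma-voom (limma 3.58.1), an exact test with a common dispersion, the replicate number as a block and each pool left out in turn. Single ratios were compared by exact permutation tests. A group with 0 counts was set to a floor of 3 counts, and ratios with few counts have exact (Clopper-Pearson) 95% intervals, both for counting error only. Folds against the floor take the count of the other age as observed, without its counting error.

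Members and lists were chosen with earlier results of these data known. Named were all members, their relatives and partners in the lists, and in each list up to 3 called genes per direction with the largest change, if their mean raw count at the higher age was above 100. *Fpgs*, *Folh1*, *Ftcd*, *Lrp1*, *Lrp6*, *Rgn*, *Gsto2*, *Sec14l2* and *Cyp2r1*, which complete counts of 5 or fewer, were named after their values were seen, as were single markers. Some other genes, and the marker sum that needs them, are not reported here. Genes were matched by name, older symbol or RefSeq protein accession. Figures were drawn with matplotlib.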

Additional observations from a re-analysis of the deposited data

How the results depend on the processing

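The counts of members, 2 at E15 and 7 in the adult, were the same under all 15 alternatives but scaling by total counts only, which left 6 in the adult. That scaling also moved the counts over all genes from 5773 to 9799 at E15 and from 4879 to 2292 in the adult (81.0% of calls at E15 in place of 54.2%), and the count of vitamin list genes in the adult from 39 to 17. It changed the sign of the log2 fold change of 3 of the 49 named genes tested, to 0.25 for *Slc46a1*, 0.18 for *Mthfd1* and 0.14 for *Slc44a4*. The cause of the larger share of the most abundant genes in the adult libraries was not tested.

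Depending on the pool left out, genes enriched numbered 5009 to 6218 at E15 and 4327 to 5449 in the adult, and vitamin list genes 19 to 20 and 36 to 40. The log2 ratio of *Slc23a2* to *Slc23a1* (E15 minus adult) lay between -6.22 and -5.13 and was -5.62 with a pseudocount of 1, and that of *Slc19a2* to *Slc19a1* lay between -1.91 and -1.44.

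By their labels, libraries of the ages share replicate numbers only. Deviations from the age means correlated across genes at -0.04, 0.01 and -0.11 for numbers 1, 2 and 3. These values gave no sign that equal numbers paired the pools, though 3 pools an age cannot exclude it. With the replicate block 5320 genes were called at E15 and 4608 in the adult, 2 and 7 of them members, and *Slc23a3* and *Slc5a8* were not called.

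Depth limits the genes with few adult counts. The fold sizes of *Lrp2*, *Slc23a1*, *Slc19a3* and *Slc5a8* moved with single adult pools, and so did the calls of *Slc19a3* and *Slc23a3*. With 3 pools an age, calls near the threshold moved with a single pool, and equal levels were not tested for genes not called. The values are levels of RNA in whole plexus, without protein, transport or cell counts. Names were limited to genes the authors had called, so listed genes outside their table were not analysed here, and no list was tested as a set.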
